A study of Mus musculus with 12 samples.

Results

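Within the macrophages of the neonatal mouse meninges, a small set of cells was chosen for a high share of Ccl8 and Mgl2 mRNA. Ccl8 is a chemokine that attracts monocytes and other leukocytes, and Mgl2 encodes a C-type lectin that binds galactose-type sugars. Partly by that choice the set held most of the Ccl8 mRNA counted in macrophages, though 63.1% of its cells showed none. The set held 814 of the 21689 cells kept in 4 libraries. Its members were chosen in steps. Cells with at least 200 detected genes and at most 10% mitochondrial UMIs (unique molecular identifiers, each standing for 1 captured mRNA molecule) were kept. Macrophages were then taken as cells whose UMIs of Mrc1, Cd163, F13a1, Cbr2 and Pf4 summed to at least 10 and exceeded the sum of the microglia genes Sparc, P2ry12, Tmem119 and Sall1. Of these 16272 macrophages, pooled over libraries, the 5% with the highest share of Ccl8 and Mgl2 among all their UMIs were the members, and the other 15458 macrophages were what they were set against.

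The cells came from brain meninges of C57Bl/6j mice at postnatal day 4, read with a 5' droplet method that also sequenced B- and T-cell receptors. HI mice were taken 6 h after hypoxia-ischemia, in which the blood and oxygen supply of the brain is cut back, and naive mice had no such injury per the labels. There were 2 HI and 2 naive gene expression libraries, each a pool of 12 mice, 6 of them male and 6 female, of the 12 libraries in all. No sham group is among these samples, so effects of surgery or handling cannot be told apart from HI. The p-values of HI against naive measure only the spread between pooled libraries. Where members were set against other macrophages of the same library, they measure only how that difference spread across the pooled libraries.

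Border macrophages line the meninges, their vessels and the choroid plexus, take up debris and proteins, and are a resident population set apart from the microglia of the brain tissue. Mgl2 (CD301b), its close relative Clec10a (CD301a) and the secreted protein Retnla (also called RELM-alpha or FIZZ1) are known in mouse macrophages as genes raised by interleukin-4 and interleukin-13. Siglec1 (CD169) is a sialic acid receptor of macrophages that meet lymph or blood, and it is also raised by type I interferon.

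The libraries held 51986763 to 68543046 UMIs. Members numbered 151 in HI 1, 287 in HI 2, 161 in naive 1 and 215 in naive 2. Pooled over libraries, members and other macrophages were of like depth, with medians of 10730 and 10716.5 UMIs, 3140 and 3197 genes and 2.64% and 2.60% mitochondrial UMIs. By library the median depth of members was 13092, 10028, 11381 and 10010 UMIs in HI 1, HI 2, naive 1 and naive 2, so those of HI 1 were the deepest. In other macrophages it was 11315.5, 10017.5, 11382 and 10515 UMIs in the same order. Members were thus deeper than other macrophages in HI 1 and shallower in naive 2. The highest doublet scores fell on 1.97% of members and 4.88% of other macrophages. Pairs of libraries shared 29 to 54 cell barcodes. One member, in HI 2, had a B-cell receptor contig and another, in naive 2, a T-cell receptor contig.

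The score that chose the members had no gap at the threshold. The cut-off lay at 829 CPM (UMIs of a gene for each 1000000 UMIs of the cell or of the summed cells) of Ccl8 and Mgl2 in the cell, the 10 members just inside had a median of 831 CPM, and the 10 macrophages just outside had a median of 828 CPM. The median was 1138 CPM over members and 103 over all macrophages, of which 40.0% had no UMI of either gene. In this score the members were thus the tail of a continuous range.

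**Figure D1:**
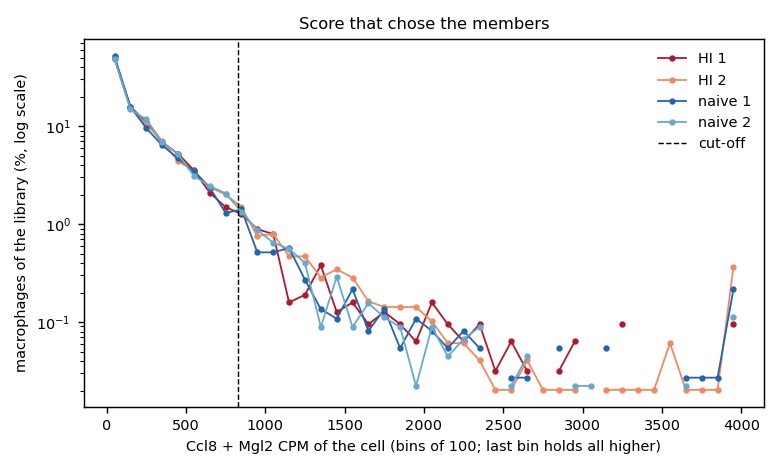
Share of each library's macrophages (percent, log axis) by the CPM of Ccl8 and Mgl2 in the cell, in bins of 100, with the last bin holding all higher cells. The 4 libraries, HI in red and orange and naive in blue, fall off smoothly through the cut-off at 829 CPM (dashed).

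The label names Ccl8 first, but Mgl2 chose most of the members. Mgl2 alone passed the cut-off in 646 members (79.4%), Ccl8 alone in 54 (6.63%), each of them in 45 (5.53%) and only their sum in 69 (8.48%). No Ccl8 UMI was seen in 514 members (63.1%), and no Mgl2 UMI in 13 (1.60%). Members carried by Ccl8 alone made up 13.2% and 7.32% of the members of HI 1 and HI 2, against 4.97% and 2.33% in naive 1 and naive 2. These shares come from the UMIs that the rule read and are description, with no test. They rest on the same Ccl8 UMIs as the Ccl8 levels and shares given below, so these are not separate results.

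As a description of the rule, Ccl8 summed over members reached 441 and 537 CPM in HI 1 and HI 2 and 340 and 282 CPM in naive 1 and naive 2. In other macrophages it was at 7.43 and 8.11 CPM in HI 1 and HI 2 and at 4.19 and 3.75 CPM in naive 1 and naive 2. Ccl8 was a rare and concentrated message: 5.11% of macrophages had a Ccl8 UMI, and members held 78.7% of all Ccl8 UMIs of macrophages. Mgl2 was widespread, with a UMI in 59.1% of macrophages, and members held 29.6% of its UMIs. Mgl2 summed to 1007 and 1275 CPM in members of HI 1 and HI 2 and 1270 and 1209 CPM in members of naive 1 and naive 2, against 141 to 156 CPM in other macrophages. In 2452 cells on the microglia side of the gate, with a median of 11879.5 UMIs, 0.204% had a Ccl8 UMI and 2.77% an Mgl2 UMI. The part of stray RNA in these shares was not tested.

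Part of a cell's place in the tail was sampling of molecules. Each cell's UMIs were split at random into 2 portions of about equal size. When the top 5% were chosen on the first, 49.4% of them were chosen again on the second. Each portion was shallower than the whole cell, so this share does not hold for the full depth at which members were chosen. In the second portion the chosen cells had 391 CPM of Ccl8, against 6.87 CPM in the other cells, and 1017 CPM of Mgl2, against 161 CPM. In the portion used for the choice, Mgl2 in the chosen cells was higher, at 1302 CPM.

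**Figure D2:**
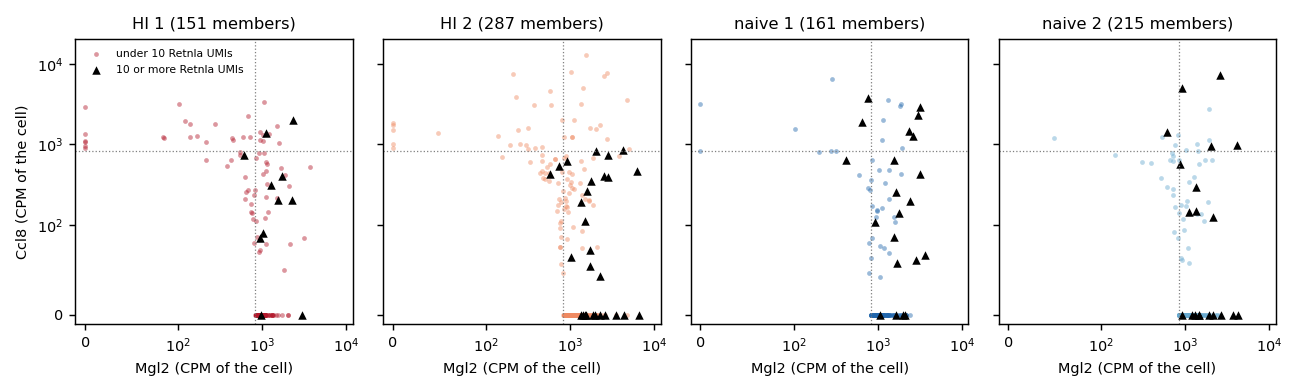
Each point is a member, by its Mgl2 and Ccl8 in CPM of the cell (linear up to 100, log above), in HI 1, HI 2, naive 1 and naive 2. Most members lie right of the vertical dotted cut-off at 829 CPM with no Ccl8 UMI, and black triangles mark the 80 members with 10 or more Retnla UMIs.

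The other markers named for these cells were higher in members, as far as they could be tested. Neither Clec10a nor Siglec1 was read by the rule. Clec10a was at 679 and 621 CPM in members of HI 1 and HI 2 and 617 and 552 CPM in members of naive 1 and naive 2, against 252, 234, 206 and 205 CPM in the other macrophages of the same libraries. The log2 change was 1.52 (edgeR, SE 0.04, adjusted p = 8.59e-27), with no overlap between classes. Siglec1 was at 115, 121, 96.5 and 106 CPM in members and 61.9, 58.5, 45.3 and 44.7 CPM in other macrophages of HI 1, HI 2, naive 1 and naive 2, a log2 change of 1.13 (SE 0.06, edgeR adjusted p = 2.38e-17). A Clec10a UMI was seen in 88.9% of members and 66.8% of other macrophages, and a Siglec1 UMI in 53.7% and 36.6%. Clec10a and Mgl2 are near-identical neighbours, 29.1 kb apart on chromosome 11 (GRCm38.p6), so reads of one may have been counted for the other, and the Clec10a value is uncertain by that amount.

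Retnla had the largest change among genes at 20 CPM or more in members. It reached 3690 and 1095 CPM in members of HI 1 and HI 2 and 2210 and 1248 CPM in members of naive 1 and naive 2. In other macrophages it was at 5.01 and 6.504 CPM in HI 1 and HI 2 and 0.764 and 7.37 CPM in naive 1 and naive 2. The log2 change was 8.58 (edgeR, SE 0.22, adjusted p = 8.59e-27), the largest among the 13029 genes tested that met the naming rule, and every library showed it. Members made up 5% of macrophages and held 95.2% of their Retnla UMIs.

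Few members carried this message. A Retnla UMI was present in 129 members (15.8%), or 18, 54, 28 and 29 members of HI 1, HI 2, naive 1 and naive 2. The share was 0.679% in other macrophages and 0.449% on the microglia side. In HI 1 a single member held 2852 of the 7402 Retnla UMIs of that library, and the 10 highest macrophages of each library held 97.6%, 68.8%, 86.1% and 76.8% of its Retnla UMIs in HI 1, HI 2, naive 1 and naive 2. The between-library spread of the Retnla level in members therefore rests on a handful of cells. Retnla did not pass in HI against naive members (a log2 difference of 0.47 with SE 0.30 and an edgeR adjusted p of 0.608), and the conditions overlapped.

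Macrophages with a Retnla UMI were more frequent among those high in Ccl8. Of the 105 macrophages with 10 or more Ccl8 UMIs, 32.4% had a Retnla UMI, and of the macrophages with no Ccl8 UMI 0.887% had one, with median depths of 16122 and 10594 UMIs. By library the share among those with 10 or more Ccl8 UMIs was 18.8% and 29.3% in HI 1 and HI 2 and 52.9% and 46.7% in naive 1 and naive 2, from 15 to 41 cells each. Among members, the link to the Ccl8 level was not the same in every library. Members with 10 or more Retnla UMIs had 547, 236, 708 and 1074 CPM of Ccl8 in HI 1, HI 2, naive 1 and naive 2, and members with none had 431, 516, 192 and 155 CPM, so HI 2 went the other way. The 80 members with 10 or more Retnla UMIs were 7.28%, 9.76%, 13.04% and 9.30% of the members of HI 1, HI 2, naive 1 and naive 2. As a description of cells picked for Retnla after its values were seen, with no test, these 80 members had 1989 CPM of Mgl2, 911 CPM of Clec10a, 1393 CPM of the chemokine gene Ccl6 and 116 CPM of the complement gene C4b. The 685 members with no Retnla UMI had 1075 CPM of Mgl2, 545 CPM of Clec10a, 257 CPM of Ccl6 and 30.8 CPM of C4b. The 80 cells were deeper, with a median of 15039 UMIs, against 10178 UMIs in the 685.

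Of Ccl8, Mgl2, Retnla, Clec10a, Siglec1 and Spint2, members held the largest shares of macrophage UMIs for Retnla (95.2%) and Ccl8 (78.7%). The Ccl8 share was partly set by the rule, which chose on Ccl8. The bases before the annotated starts of these 2 genes are shown. They are the 250 bases upstream of the start on the plus strand, from RefSeq (GRCm38.p6), at chr16:48842359-48842608 for Retnla and chr11:82114935-82115184 for Ccl8. Capitals mark matches, on either strand, to TTCNNNNGAA (STAT6), GAGGAAGT (PU.1), TTGCNNAA (C/EBP) and TATAAA (the core promoter box bound by TBP).
Retnla: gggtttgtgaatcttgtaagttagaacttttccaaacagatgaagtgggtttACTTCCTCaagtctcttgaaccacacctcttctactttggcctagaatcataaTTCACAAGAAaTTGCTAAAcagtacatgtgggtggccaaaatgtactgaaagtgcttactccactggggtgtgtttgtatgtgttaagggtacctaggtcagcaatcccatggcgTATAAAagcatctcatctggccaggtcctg
Ccl8: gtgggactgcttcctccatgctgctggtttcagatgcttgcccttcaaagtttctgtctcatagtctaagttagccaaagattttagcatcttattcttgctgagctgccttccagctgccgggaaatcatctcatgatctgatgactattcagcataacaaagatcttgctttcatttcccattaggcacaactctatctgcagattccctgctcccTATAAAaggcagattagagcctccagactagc
The Retnla window held 1 match of each motif, which begin 198 (PU.1), 145 (STAT6), 134 (C/EBP) and 30 (TBP) bases before the start and do not overlap. The Ccl8 window held 1 match, the TBP box 32 bases before the start. Of 32851 promoter windows of the same length, 5.85% held the STAT6 motif, 2.44% the PU.1 motif, 9.56% the C/EBP motif and 12.4% the TBP box.

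Over the genes the rule did not read, 1628 of 13029 (12.5%) differed between members and other macrophages, 851 (6.53%) higher and 777 (5.96%) lower, at an edgeR adjusted p under 0.05. The median log2 change of all genes was -0.01. Beside Retnla, the largest rises among genes at 20 CPM or more in members were those of Spint2, an inhibitor of serine proteases, Dnase1l3, a secreted DNase, A930018M24Rik, Cd209b, a C-type lectin that binds bacterial sugars, and Gfra2, a receptor of the neurturin ligand. Spint2 was at 23.5, 19.9, 24.5 and 22.6 CPM in members and 1.36, 1.44, 1.55 and 1.59 CPM in other macrophages of HI 1, HI 2, naive 1 and naive 2 (log2 change 3.97, SE 0.20, adjusted p = 5.03e-18). Its levels were nearly the same in all 4 libraries, yet only 15.1% of members had a Spint2 UMI, against 1.27% of other macrophages. Dnase1l3 rose by 2.67, A930018M24Rik by 2.45, Cd209b by 2.39 and Gfra2 by 2.18 on the log2 scale. Cd209b rested on few cells, with a UMI in 6.62%, 8.36%, 6.21% and 9.30% of members of HI 1, HI 2, naive 1 and naive 2. In the same order, 3 members held 76 of 99, 109 of 348, 26 of 38 and 112 of 179 Cd209b UMIs. The matrix protease gene Mmp9 was at 85.9, 129, 121 and 139 CPM in members and 30.2, 37.6, 24.3 and 29.5 CPM in other macrophages of HI 1, HI 2, naive 1 and naive 2 (log2 change 2.02). The growth factor gene Igf1 was at 873, 837, 962 and 884 CPM in members and 361, 341, 431 and 367 CPM in other macrophages (log2 change 1.31, SE 0.03, adjusted p = 1.52e-26).

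The further named genes that rose were Enpp2 (2.00), which encodes autotaxin, C4b (1.84), Cd74 (1.70), the invariant chain of MHC class II, Il1rl2 (1.68), the interleukin-36 receptor, Acp5 (1.61), Anpep (1.60), Bcar3 (1.56), Gstp2 (1.55) and Cfb (1.52), given as log2 changes. All 16 named genes passed under every alternative tried. Cd74 was at 361, 383 and 474 CPM in members of HI 1, HI 2 and naive 1 and at 1223 CPM in members of naive 2, against 156 to 197 CPM in other macrophages. In naive 2, 3 members held 2058 of the 2971 Cd74 UMIs. Enpp2 is also a choroid plexus gene. Ttr, the defining choroid plexus transcript, was at 1.31 to 11.9 CPM in members and 2.62 to 193 CPM in other macrophages, and the part of choroid plexus RNA in the Enpp2 level was not tested.

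**Figure D3:**
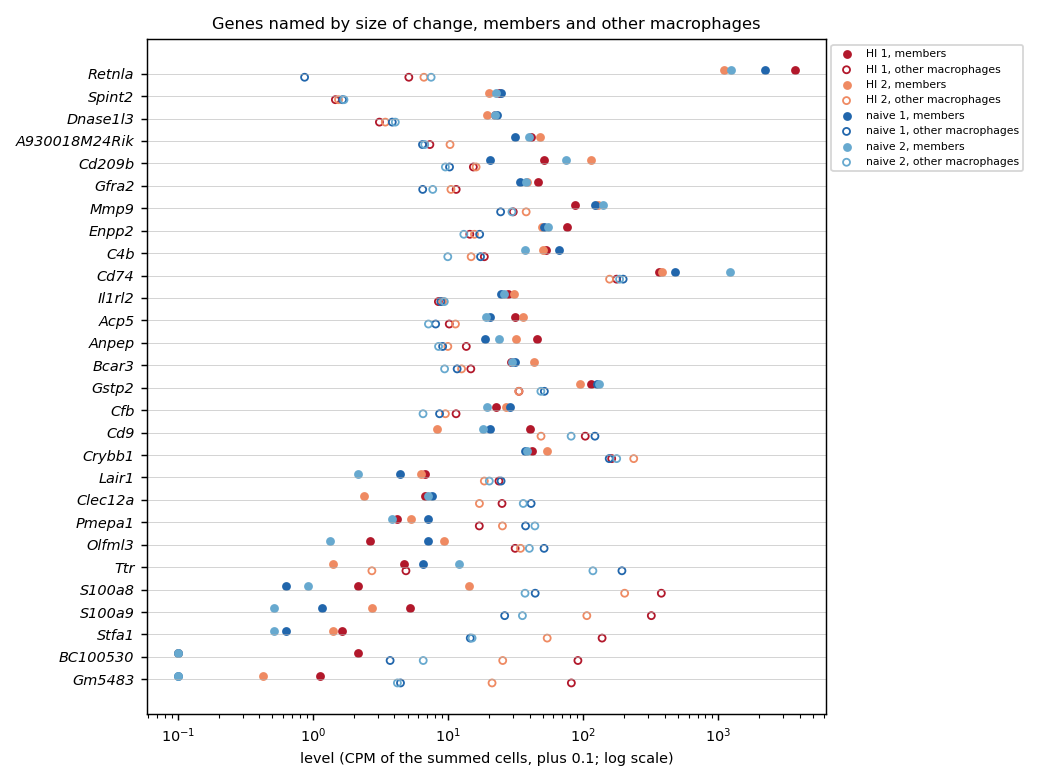
Level of the 28 named genes (CPM of the summed cells plus 0.1, log axis) in members (filled) and other macrophages (open) of HI 1, HI 2, naive 1 and naive 2. The upper 16 genes are higher in members of every library and the lower 12 are lower, and Retnla stands at 1095 to 3690 CPM in members.

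The largest falls were of genes that a few of the other macrophages held at high levels. Gm5483, BC100530, Stfa1, S100a9 and S100a8, all genes of neutrophils, were at 0 to 14.0 CPM in members and at 3.61 to 378 CPM in other macrophages. S100a8 was seen in 1.07% to 4.55% of other macrophages per library, and 3 cells of HI 1 held 5336 of its 13872 UMIs. The 7 neutrophil markers summed to 3.20 to 18.9 CPM in members and 71.3 to 826 CPM in other macrophages. Ttr fell by 3.54 on the log2 scale, with 4.76 and 2.62 CPM in other macrophages of HI 1 and HI 2 and 193 and 118 CPM in those of naive 1 and naive 2. In naive 1, 3 of those cells held 6045 of 8327 Ttr UMIs.

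Other named genes that fell were spread over cells or close to microglia. Crybb1, a gene of immature microglia and macrophages, was at 41.4, 53.3, 36.8 and 37.9 CPM in members and 162, 236, 155 and 176 CPM in other macrophages of HI 1, HI 2, naive 1 and naive 2 (log2 change -2.06, SE 0.06, adjusted p = 7.92e-24). Olfml3, a microglial gene, fell by 2.82, Pmepa1 by 2.56, the inhibitory receptors Clec12a by 2.31 and Lair1 by 2.08, and the tetraspanin Cd9 by 2.00 on the log2 scale. Pmepa1, Clec12a, Lair1, Crybb1 and Cd9 passed under every alternative tried. The 8 microglia markers, of which the gate read 4, summed to 567, 528, 581 and 487 CPM in members and 1041, 962, 1305 and 1113 CPM in other macrophages of HI 1, HI 2, naive 1 and naive 2. The part of this shift in the genes that fell was not tested.

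Of the receptors for sugars and antibodies, more rose than fell. For these and the other lists of members against other macrophages, the share over all 13029 genes was 6.53% higher and 5.96% lower. Of 19 C-type lectin genes tested, 12 rose and 2 fell, with a median log2 change of 0.72. Cd209f was at 351, 343, 476 and 385 CPM in members and 281, 169, 309 and 236 CPM in other macrophages of HI 1, HI 2, naive 1 and naive 2 (log2 change 0.74, adjusted p = 9.11e-13). Cd209d rose by 4.56 on the log2 scale, to 4.60 to 29.2 CPM in members. The Cd209 genes are related in sequence, so reads may have been split among them. Of 6 Fc receptor genes, 4 rose and 0 fell, and the call of Fcer1g, among the 4, was lost in 7 of 16 alternatives. Fcgr2b, the inhibitory Fc receptor, was at 1489, 1330, 1222 and 1151 CPM in members and 726, 772, 625 and 568 CPM in other macrophages (log2 change 1.01, SE 0.04, adjusted p = 3.48e-22). Of 7 Siglec genes, Siglec1 rose and Siglech, a microglial gene, fell by 0.54, a call lost in 4 of 16 alternatives.

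In the complement, interferon and iron lists every gene that passed was higher in members. Of 14 complement genes, 10 rose and 0 fell. C4b and Cfb, given above, are among them, and those with the highest levels changed little. These were C1qa (log2 change 0.15), C1qb (0.25) and C1qc (0.19), the parts of the C1q recognition protein. Of 24 type I interferon response genes, 14 rose and 0 fell, with a median log2 change of 0.34. Ly6e was at 1284, 1194, 1081 and 921 CPM in members and 952, 917, 852 and 706 CPM in other macrophages of HI 1, HI 2, naive 1 and naive 2 (log2 change 0.44, adjusted p = 1.19e-13). Of 13 haem and iron genes, 8 rose and 0 fell. Hmox1, which breaks down haem, was at 783, 1772, 1730 and 1091 CPM in members and 655, 1083, 763 and 636 CPM in other macrophages (log2 change 0.80, adjusted p = 1.59e-12). Hfe, which takes part in sensing iron, rose by 0.83.

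Chemokine genes split by type. Of 9 CC chemokine genes other than Ccl8, 5 rose (Ccl6, Ccl7, Ccl9, Ccl12 and Ccl24) and 3 fell (Ccl3, Ccl4 and Ccl5). Ccl6 was at 609, 487, 443 and 303 CPM in members and 259, 206, 193 and 159 CPM in other macrophages of HI 1, HI 2, naive 1 and naive 2 (log2 change 1.22, SE 0.04, adjusted p = 4.37e-22). Ccl7, a monocyte attractant of the same chromosome 11 cluster as Ccl8, rose by 0.93 and Ccl24, an eosinophil attractant, by 0.47, while Ccl4 fell by 1.67, a call lost with DESeq2 and at middle depth. Of 7 CXC chemokine genes, Cxcl12 rose by 1.02 (lost in 3 of 16 alternatives) and 4 fell, among them the neutrophil attractant Cxcl2, at 0 to 1.23 CPM in members and 2.15 to 28.3 CPM in other macrophages. Of the chemokine receptor genes, Ccr1 fell by 0.52 and Ccr2, the receptor of classical monocytes, by 1.82 on the log2 scale. Ccr2 was at 0.327 to 1.07 CPM in members of HI 1, HI 2 and naive 1 and at 17.7 CPM in those of naive 2.

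The resident macrophage programme was not uniformly higher. Of 18 genes of Lyve1-positive resident macrophages, 12 rose and 3 fell. Folr2, a folate receptor, rose by 0.72, Fcna, a ficolin, by 0.62 and Timd4, a receptor for dying cells, by 0.41 (-0.06 with members chosen by Ccl8 alone), while Lyve1 fell by 0.21, Stab1 by 0.14 and Hpgd by 0.40. Of 17 genes of the interleukin-4 list, 8 rose, Retnla and Clec10a among them, and 4 fell. Of 12 genes for uptake of dying cells, 3 rose and 6 fell. Of 15 genes of phagocyte lipid handling, 1 rose, Lgals1, and 8 fell, led in level by Apoe (log2 change -0.10, lost in 5 of 16 alternatives) and Trem2 (-0.55). Of 10 cathepsin genes, 6 rose and 2 fell.

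Members were poorer in messages of dividing cells. Of 25 cell cycle genes, 0 rose and 19 fell, with a median log2 change of -1.15. Ube2c was at 4.60, 19.3, 56.5 and 22.6 CPM in members and 48.7, 68.8, 75.0 and 80.8 CPM in other macrophages of HI 1, HI 2, naive 1 and naive 2 (log2 change -1.43, adjusted p = 3.71e-09). An Mki67 UMI was seen in 3.97%, 8.36%, 8.07% and 6.51% of members and 8.41%, 8.22%, 9.90% and 10.2% of other macrophages in the same order, lower in members in 3 of 4 libraries. Of 20 genes of the NF-kB response, 3 rose and 9 fell, and Ier3 (log2 change 0.56) went against Nfkbia (-0.30). Of 9 MHC class II genes, Cd74 rose and H2-DMb2 fell, the second call being lost in 9 of 16 alternatives. In the glucocorticoid list 3 of 15 genes rose and 4 fell, and in the IL-10 list 1 of 12 rose and 3 fell. In the immediate-early list 1 of 16 rose and 1 fell, and in the hypoxia list 0 of 23 rose and 3 fell. The immediate-early and hypoxia lists were thus near the 12.5% called over all 13029 genes.

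No change in the share of members was detected in HI. They made up 4.78% and 5.83% of the macrophages of HI 1 and HI 2, against 4.36% and 4.79% in naive 1 and naive 2. The difference of 0.732 percentage points lay within the spread of libraries (2-sided exact permutation p = 0.667), and 2 libraries against 2 cannot give a p below 0.333. When the top 5% were taken by Ccl8 alone, the shares were 6.61% and 6.30% in HI libraries, against 3.84% and 3.41% in naive libraries, without overlap (exact permutation p = 0.333, the smallest possible). By Mgl2 alone they were 4.21% and 5.59% in HI libraries and 4.73% and 5.14% in naive libraries, a difference of -0.0419 points (exact p = 1).

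**Figure D4:**
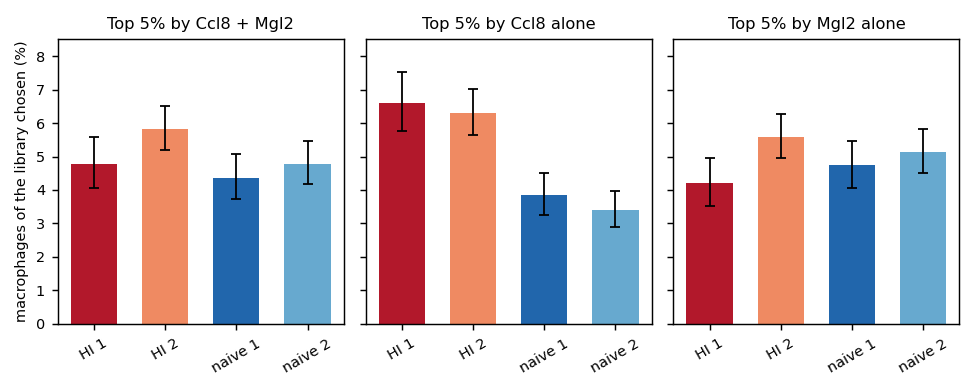
Share of each library's macrophages (percent) in the top 5% by Ccl8 plus Mgl2, by Ccl8 alone and by Mgl2 alone, in HI 1, HI 2, naive 1 and naive 2. Bars are single libraries and error bars are exact 95% binomial intervals, which cover counting error only. HI libraries stand above naive ones without overlap for Ccl8 alone, at 6.61% and 6.30% against 3.84% and 3.41%.

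Across all macrophages, where the rule chose nothing by Ccl8 or Mgl2, 428 of 13610 genes (3.14%) changed in HI, 265 (1.95%) higher and 163 (1.2%) lower. Ccl8 rose to 29.3 and 38.7 CPM in HI 1 and HI 2, against 18.2 and 17.2 CPM in naive 1 and naive 2 (log2 change 0.97, SE 0.14, edgeR adjusted p = 0.0296). Siglec1 rose to 64.5 and 62.1 CPM in HI libraries, against 47.4 and 47.7 CPM in naive libraries (log2 change 0.43, adjusted p = 0.0165), and Clec10a to 274 and 257 CPM, against 223 and 221 CPM (0.28, adjusted p = 0.0493). Mgl2 was at 190 and 218 CPM in HI libraries and 188 and 207 CPM in naive libraries, with no called change (0.07, SE 0.09, adjusted p = 0.688). The calls of Ccl8 and Siglec1 were lost without naive 1 or without naive 2, where 0 and 2 genes in all were called, and that of Clec10a also without HI 1.

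Within members, 193 of 9345 genes (2.07%) differed between HI and naive, 118 (1.26%) higher and 75 (0.803%) lower. Both HI libraries lay beyond both naive libraries for 40.8% of the 9345 genes tested, called or not. Clec10a was at 679 and 621 CPM in HI members, against 617 and 552 CPM in naive members (log2 change 0.16, adjusted p = 0.544), and Siglec1 at 115 and 121 CPM, against 96.5 and 106 CPM (0.23, adjusted p = 0.451). Neither passed, though the HI libraries stood above the naive ones for each. Other macrophages had 465 calls among 13565 genes (3.43%), 282 (2.08%) higher and 183 (1.35%) lower, from far more cells. Of 9342 genes tested in each class, 118 were called in each, all in the same direction, which is 61.1% of the calls of members and 32.9% of those of other macrophages.

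Spp1, Arg1, Lmna and Hif3a were among the genes that rose most in HI members. Spp1, which encodes the secreted protein osteopontin, was at 408 and 188 CPM in HI 1 and HI 2 members, against 21.9 and 25.9 CPM in naive 1 and naive 2 members (log2 change 3.61, SE 0.27, adjusted p = 1.43e-08). Arg1, the arginase of alternatively activated macrophages, was at 35.3 and 32.3 CPM in HI members, against 4.26 and 2.47 CPM in naive members (3.36, SE 0.31, adjusted p = 4.88e-07). Arg1 rested on few cells: 11 and 21 HI members had a UMI, against 2 and 4 naive members, and 3 HI 1 members held 60 of 69 UMIs. Lmna, the nuclear lamin A/C, was broad instead, with a UMI in 78.8% and 77.4% of HI members, against 42.2% and 44.7% of naive members. It was at 204 and 245 CPM in HI members, against 69.8 and 64.6 CPM in naive members (1.76, SE 0.12, adjusted p = 7.89e-09). Hif3a, a regulator of the hypoxia response, was at 29.6 and 48.4 CPM in HI members, against 5.33 and 11.9 CPM in naive members (2.17, SE 0.29, adjusted p = 6.67e-05).

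The other named genes that rose were Saa3 (log2 change 4.62), an acute-phase protein, Lrg1 (3.49), Egr1 (2.86), Entpd3 (2.48), Socs3 (2.41), a brake on STAT3 signalling, Rnf128 (1.99), Gprc5b (1.83) and Usp2 (1.82). Saa3 rested on 3 and 10 HI members and Egr1 on 5 and 8, so their levels are those of few cells. Hif3a and Lmna were the only 2 of the 12 that passed under every alternative tried. Spp1, Arg1, Lrg1 and Egr1 each missed the threshold under 1 alternative, the choice of members by Ccl8 alone. Arg1 and Egr1 had too few counts to be tested in macrophages of middle depth, and Egr1 also in the top 2.5%.

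**Figure D5:**
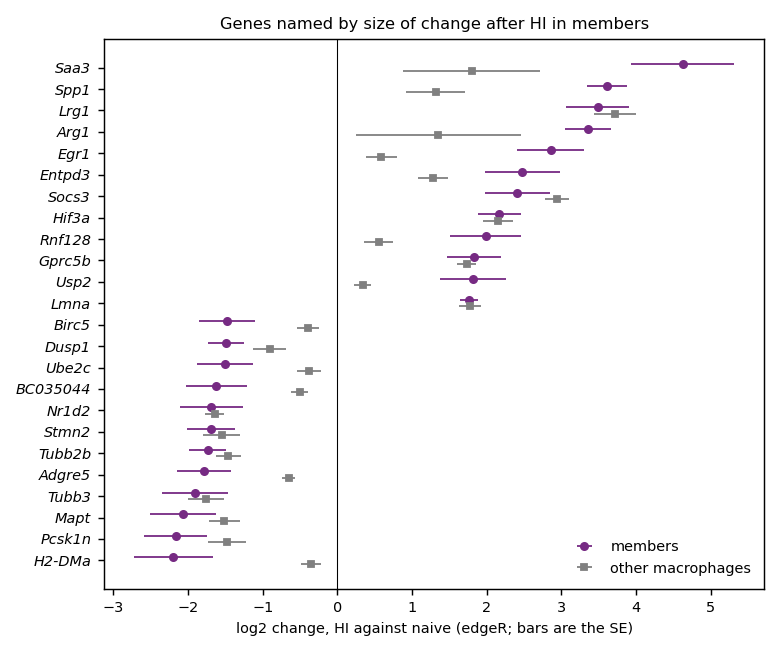
Log2 change in HI against naive for the 24 named genes, in members (circles) and other macrophages (squares), with bars of 1 SE. Lmna, Hif3a, Lrg1 and Socs3 lie at like values in each class, and Spp1 lies at 3.61 in members and 1.32 in other macrophages.

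Single genes of the hypoxia, glucocorticoid and CC chemokine lists passed in HI members, a minority of those lists. Over all 9345 genes tested in members, 2.07% passed. Of 21 hypoxia genes, 6 rose and 0 fell. They were the glycolytic genes Pgam1, Pgk1 and Tpi1, with Mif, Bnip3 and the oxygen sensor Egln3. Pgam1 was at 249 and 281 CPM in HI members, against 157 and 149 CPM in naive members (log2 change 0.81, adjusted p = 3.71e-05). Of 12 glucocorticoid response genes, 4 rose (Sult1a1, Fkbp5 and the close copies Mt1 and Mt2, whose reads may have been split) and Dusp1 fell. Mt1, a metallothionein that is also raised by metals, was at 1836 and 2094 CPM in HI members, against 850 and 770 CPM in naive members (1.29, SE 0.09, adjusted p = 8.01e-09). Of 7 CC chemokine genes 3 rose, Ccl12 by 0.91, Ccl6 by 0.56 and Ccl9 by 0.50. Arg1 and Il4ra, a chain of the interleukin-4 receptor, rose among 11 genes of the interleukin-4 list. Pgam1 and Mt1 passed under all 17 alternatives. The call was lost in 12 of them for Bnip3, in 7 each for Pgk1, Ccl6 and Fkbp5, in 6 for Il4ra, in 5 each for Tpi1 and Mt2, in 4 for Ccl9, in 4 of the 11 that tested it for Egln3, in 3 each for Sult1a1 and Dusp1, in 2 for Mif and in 1 for Ccl12.

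Timd4 and Hpgd fell in HI members. Timd4 was at 47.5 and 37.2 CPM in HI members, against 97.5 and 88.5 CPM in naive members (log2 change -1.15, SE 0.14, adjusted p = 3.40e-05). It was at 45.3 and 32.9 CPM in other HI macrophages, against 69.7 and 61.5 CPM in other naive macrophages. These were the 2 of 16 Lyve1 macrophage genes that passed, and Timd4 and Cd36 were the 2 of 11 uptake genes. The Timd4 call was lost with members chosen by Ccl8 alone and by Mgl2 alone, that of Hpgd at middle depth, and that of Cd36 in 7 of 17 alternatives. Of 14 immediate-early genes, Egr1 rose while Dusp1, Jund, Ier2 and Klf2 fell. Ube2c and Birc5 fell among 24 cell cycle genes, H2-DMa and Cd74 among 3 MHC class II genes, and Blvrb among 12 haem and iron genes. C1qb rose among 12 complement genes, Socs3 and Il4ra among 10 IL-10 genes, and Spp1 among 13 lipid handling genes. Of these, the calls were lost in 10 of 17 alternatives for Blvrb, in 8 each for Jund, Ube2c and Birc5, in 7 for Ier2, in 5 for Klf2 and in 4 each for C1qb and Socs3, where Ube2c, Birc5 and Socs3 were tested in 16. No gene passed among 16 C-type lectins, 23 type I interferon genes, 14 NF-kB genes, 10 cathepsins, 6 Fc receptors, 5 Siglecs and 2 CXC chemokines. Over all 9345 genes 2.07% passed, so 0 or 1 calls in lists of this size say little of those genes.

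Several named genes that fell in HI members are genes of neurons. Pcsk1n (log2 change -2.17), Mapt (-2.06), Tubb3 (-1.91), Tubb2b (-1.74) and Stmn2 (-1.69) fell in members, and the 5 neuron and glia markers summed to 74.6 and 73.8 CPM in HI members, against 164 and 147 CPM in naive members. In other macrophages the same sum was 41.6 and 67.6 CPM in HI libraries, against 156 and 133 CPM in naive libraries. The part of stray brain RNA in these changes was not tested. The further named genes that fell were Adgre5 (-1.78), Nr1d2 (-1.69), a clock gene, BC035044 (-1.62), Ube2c (-1.50), Dusp1 (-1.49), Birc5 (-1.48) and H2-DMa (-2.20). None of the 12 genes that fell passed under every alternative tried. H2-DMa and Cd74 turned on naive 2, where 3 members held 61 of the 69 H2-DMa UMIs, and their calls were lost without that library.

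The response to HI differed between members and other macrophages for 31 of 13029 genes (0.238%), 9 (0.0691%) with a higher and 22 (0.169%) with a lower log2 effect in members. With DESeq2, 0 genes were called with a higher and 2 with a lower effect, and with a replicate block 1 and 2. For this difference the block took the place of the term per library. That fit thus did not pair members with the other macrophages of their library. Spp1 had a difference of 2.23 (SE 0.15, edgeR adjusted p = 5.91e-19). It did not pass with DESeq2, at 2.24 (DESeq2 adjusted p = 0.256). With members chosen by Ccl8 alone the difference was only 0.11 and did not pass. Spp1 passed in the other 15 of 17 alternatives. In other macrophages it stood at 1015 and 515 CPM in HI libraries and 417 and 205 CPM in naive libraries, so its level in members of either condition was below that of other macrophages of the same libraries. Ccl24 and Mt1 had effects higher in members by 0.33 and 0.31, each lost in 8 of 17 alternatives, DESeq2 and the block among them. Ccl7 had an effect lower by 0.85, with 216 and 206 CPM in HI members and 279 and 248 CPM in naive members, against 153 and 155 CPM in other HI macrophages and 118 and 97.3 CPM in other naive macrophages. The Ccl7 call was lost only with members chosen by Ccl8 alone. Ccl2, Hmox1 and C5ar1 had effects lower by 0.52, 0.48 and 0.46, which were lost in 11, 7 and 4 alternatives.

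The largest of these differences came from a few cells. H2-Aa, H2-Ab1 and H2-Eb1, the MHC class II chains, had 626, 375 and 430 UMIs in members of naive 2, all of them in 3 cells, and 0 to 2 UMIs in members of each other library. Plbd1 had 75 UMIs in 4 members of naive 2. The 8 dendritic cell markers summed to 73.3 CPM in members of naive 2 and 15.5 to 21.2 CPM in members of the other libraries, and the share of other cell types in these 3 cells was not tested. Igkc and Vpreb3, genes of B-lineage cells, had 22 and 27 UMIs in members, all in 1 cell of HI 2. Without these 4 members the number of genes called for the difference was 27.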

How the data were processed

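The authors deposited 1 matrix of UMI counts per gene and barcode for each gene expression library, with no normalization, and tables of receptor contigs with their UMI and read counts. The submitters' processing notes name Cell Ranger 2.2.0, Seurat and the builds mm10 and GRCm38, without the role of each. Of 28694 rows of genes, 28341 had an ID in the gene table.

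Counts were summed per library and class and compared in edgeR 4.0.16 by its quasi-likelihood test (filterByExpr, TMM, 2-sided) with Benjamini-Hochberg adjustment over all genes tested, at 0.05. Members were set against other macrophages with a term per library, HI against naive within each class, and the difference of the 2 HI effects as an interaction. The 11 genes read by the rule were left out of the contrasts that use members, and Ccl8 and Mgl2 were tested only over all macrophages. The fit shares the spread among genes, so very small p-values say little of a single gene's own spread between libraries. CPM are of the summed cells. The design's 2 runs each held an HI and a naive library, but which library belongs to which run is not labelled, so no values within runs could be given. Same-numbered HI and naive libraries did not deviate together (correlation 0.0148 in members) and were not treated as pairs.

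Doublets were scored with Scrublet (scanpy 1.11.5) and kept, and leaving out the highest scores, at 0.8% per 1000 barcodes, was an alternative. That rank was used since the automatic threshold called 1 to 3 cells a library. DESeq2 1.42.0 was the other tool. Counts were also simulated with 200 genes changed by 1 on the log2 scale. Of these, 93.0% were called between members and other macrophages, 73.0% between HI and naive members and 13.5% for the difference of HI effects. The 200 genes were drawn only from those with high counts, all genes shared 1 fixed spread, and the sums otherwise differed only in size. These rates thus do not hold for genes with low counts. False calls numbered 5, 6 and 0 in the same order.

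The members, 21 gene lists and 15 marker lists were chosen with earlier results of these data known. The counts of the chemokine receptor list are not reported here. Named genes are those past 0.05 and moved the same way in every library, at 20 CPM or more (members against other macrophages; the 16 largest rises and 12 largest falls) or 10 CPM or more (HI against naive; 12 each way), the 4 largest each way for the difference, the markers, and up to 4 list genes that passed with the highest levels. Genes outside that rule (Cd209d, Folr2, Fcna, Timd4, Hpgd, Igf1, Ccl7, Ccl4, Cxcl2, Mki67, Bnip3, Egln3, Fkbp5 and those given only as members of a list) were picked after their values were seen.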

Additional observations from a re-analysis of the deposited data

Results flagged for a closer look

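The difference of the HI effects, members minus other macrophages, was called for 31 genes, which marks a response that differs between the 2 classes. The largest on the log2 scale were Vpreb3 (10.68), Igkc (9.91), Ttr (3.56) and Egr1 (2.26) with a higher effect in members, and Plbd1 (-5.31), H2-Ab1 (-5.73), H2-Eb1 (-6.14) and H2-Aa (-8.03) with a lower one. Vpreb3 and Igkc had 27 and 22 UMIs in members, in 1 cell. H2-Aa, H2-Ab1, H2-Eb1 and Plbd1 had nearly all their UMIs of members in naive 2. These 6 fitted values rest on libraries at or near 0 and are no measure of size. Ttr was at 4.60 and 1.31 CPM in HI members and 6.40 and 11.9 CPM in naive members, against 4.76 and 2.62 CPM in other HI macrophages and 193 and 118 CPM in other naive macrophages, which is where its levels differed most. Egr1 was at 22.5 and 12.7 CPM in HI members and 1.60 and 2.88 CPM in naive members, against 13.1 and 10.5 CPM in other HI macrophages and 9.63 and 6.28 CPM in other naive macrophages. The difference calls of Ttr and Egr1 were each lost in 8 of 17 alternatives, DESeq2 and the replicate block among them.

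In the receptor libraries, which the comparisons do not use, 1 member of HI 2 had a productive B-cell receptor contig and 0 members of the naive libraries had one. Among other macrophages 20 of 15458 cells (0.129%) had one.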

How the results depend on the processing

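The number of genes called between members and other macrophages was 1628 and moved by over 1.5 times only in macrophages of middle depth, where it was 790. Between HI and naive members it was 193 and became 54 with DESeq2, 307 with no filter on low counts, 39 in the top 2.5%, 29 by Ccl8 alone, 100 by Mgl2 alone, 113 on thinned cells, 80 at middle depth and 98 to 281 when single libraries were left out. In other macrophages it was 465 and became 786 with DESeq2, 1168 with no filter and 18 to 1336 without single libraries, lowest without naive 1 (18) and naive 2 (38). Over all macrophages it was 428 and became 841 with DESeq2, 1423 with no filter, 0 without naive 1, 2 without naive 2 and at most 1083, without HI 2. For the difference of HI effects it was 31 and became 2 with DESeq2 (0 higher, so Spp1 was not among them), 10 in the top 10%, 8 by Ccl8 alone, 19 by Mgl2 alone, 6 with the top 5% of each library and 18 to 54 without single libraries. With a replicate block, which the pairing check did not favour, the calls were 421 in members, 1164 in other macrophages, 1445 over all macrophages and 3 for the difference. For the difference the block replaced the term per library, so members and other macrophages of a library were not paired.

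The share of members kept its direction except by Mgl2 alone (-0.0419 points). It was 0.206 to 1.26 points without single libraries. Of 2814 values of named genes under alternatives, 2344 kept direction and side of the threshold, 440 no longer passed, 7 newly passed and 23 changed sign. Those by Ccl8 alone were Cxcl16 (0.064), Siglech (0.094) and Timd4 (-0.060) against other macrophages, Clec10a (-0.040) and Rnf128 (-0.11) in HI members, and Ccl2 (0.083), Hmox1 (0.24), H2-Aa (0.59), H2-Ab1 (0.95), H2-Eb1 (0.64) and Igkc (-0.082) for the difference. Ube2c in HI members was 0.054 in the top 10% and 0.40 on thinned cells. For the difference, Egr1 (-0.020) and Igkc (-0.22) turned in the top 2.5%, Siglec1 (0.026) in the top 10%, H2-Eb1 (4.19) at middle depth, and H2-Ab1 (-6.90 to 7.77 without single libraries) and H2-Eb1 (-7.43 to 7.70) without naive 2. Mgl2 over all macrophages was -0.049 to 0.19 without single libraries, lowest without HI 2. Without the 4 members that held MHC class II or B-lineage messages, an alternative chosen after seeing the data, H2-Aa (0.77), H2-Ab1 (7.91) and H2-Eb1 (7.69) turned, and the calls were 1725, 210 and 27. The cause of these shifts was not tested.

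Overlap with the members was 36.7% for the top 5% by Ccl8 alone, 86.6% by Mgl2 alone and 74.9% on thinned cells. With 151 to 287 members a library, genes seen in few cells are limited by cell number.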
